A study of Homo sapiens with 15 samples.

Results

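The effect of adding active FOXO1 to FOXL2C134W was read from 6 of the 15 RNA-seq libraries of the study. The libraries of FOXL2C134W + FOXO1 (replicates A, B and C) were set against those of FOXL2C134W (replicates A, B and C), as the labels name them. All 6 cultures were HGrC1 cells, an immortalized human granulosa cell line that was not luteinized and carried normal FOXL2 alleles, transfected with SMAD3 and with FOXL2C134W in the pCS2+ plasmid. The 3 cultures of FOXL2C134W + FOXO1 also received FOXO1-3A in the pCDNA3 plasmid, a FOXO1 in which the AKT phosphorylation sites are alanine and which is therefore constitutively active. Transfection lasted 4 h and was followed by 24 h without serum. The other conditions were Vectors (empty plasmids), FOXL2WT (SMAD3 with wild-type FOXL2) and FOXL2WT + FOXO1 (the same with FOXO1-3A), each with 3 libraries, and they served as reference. The model is 1 cell line with transient overexpression, so each library averages transfected and untransfected cells, and fewer cells expressing a gene cannot be told apart from less RNA per cell. The labels do not say whether the lettered replicates were transfected on separate days, so p-values measure the spread between these cultures.

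FOXL2 and FOXO1 are both forkhead transcription factors. FOXL2 maintains granulosa cell identity, and its C134W form, which interacts with SMAD3, is the characteristic mutation of adult granulosa cell tumors. FOXO1 acts at the end of the insulin and PI3K-AKT pathway: phosphorylation by AKT keeps it out of the nucleus, and in the nucleus it activates genes of cell cycle arrest, apoptosis, stress resistance and metabolism. The question of the comparison was how a FOXO1 that escapes this control changes the transcriptome of cells with FOXL2C134W.

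The 6 libraries held 21588978 to 25339094 estimated counts. Levels are CPM after TMM scaling, that is, counts relative to the size of the library, with the SD over 3 replicates. Of 28 granulosa and steroidogenic genes in the table, 8 had at most 3 counts in each of the 6 libraries, among them the gonadotropin receptors FSHR and LHCGR and the inhibin subunit INHA, and the aromatase gene CYP19A1 had at most 4. The granulosa transcription factor GATA4 (146 and 138 CPM on average without and with FOXO1), WT1 (44.1 and 44.5 CPM) and the activin antagonist FST (41.8 and 44.2 CPM) were expressed. Among markers of other cells, 7 epithelial genes summed to 17.5 to 22.2 CPM and 7 endothelial genes to 32.6 to 37.4 CPM. The 6 theca and Sertoli genes summed to 23.2 to 29.2 CPM. Nearly all of this came from SOX9, at 27.3 CPM on average without and 24.0 CPM with FOXO1. The 7 leukocyte genes summed to 91.2 to 98.8 CPM, nearly all of it from the lysosomal gene CD68, and CD3E had no count. None of the other-cell markers tested was called in the comparison by edgeR, and DESeq2 also called 0. FOXL2C134W replicate A stood apart from its group. Its counts differed from replicates B and C by a chi-square per degree of freedom of 7.44 and 8.39, against 2.54 between B and C. In FOXL2C134W + FOXO1 the pairs gave 4.03, 4.81 and 6.88, highest between B and C.

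The transfected genes were examined first. FOXO1 stood at 12, 12.4 and 11.6 CPM in FOXL2C134W replicates A, B and C and at 43.3, 47.2 and 39.1 CPM in FOXL2C134W + FOXO1. The groups were far apart, and the log2 fold change was 1.85 (standard error 0.09, adjusted p = 5.8e-10 in edgeR's quasi-likelihood test). In the wild-type background FOXO1 rose more, from 12.2 ± 0.66 to 117 ± 14.5 CPM (SD, n = 3), and the difference between the rises was past the threshold (interaction -1.41, edgeR adjusted p = 4.7e-05). SMAD3, the TGF-beta effector present in all 6 cultures, was at 884, 832 and 812 CPM without FOXO1 and at 379, 411 and 385 CPM with it. SMAD3 therefore fell by 1.11 on the log2 scale (standard error 0.05, edgeR adjusted p = 8.1e-11). FOXL2 was at 175, 145 and 121 CPM without and 142, 175 and 139 CPM with FOXO1, and these groups overlapped (log2 fold change 0.05, standard error 0.10, edgeR adjusted p = 0.92). That value turned to -0.07 without FOXL2C134W + FOXO1 replicate B or FOXL2C134W replicate C. In the deposited TPM, which divide by transcript length and were summed over the transcripts of a gene, both differences were larger. FOXO1 was at 2.53, 11.3 and 2.49 TPM without and 297, 254 and 172 TPM with FOXO1-3A, and SMAD3 at 1447, 1373 and 1241 TPM without and 364, 445 and 406 TPM with it. With transcript length offsets in DESeq2 the log2 fold changes were 5.51 for FOXO1 and -1.73 for SMAD3. The estimated counts do not separate plasmid from cellular transcripts. Every difference below was thus measured in cultures with more FOXO1 and less SMAD3, and these changes cannot be told apart here.

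**Figure D1:**
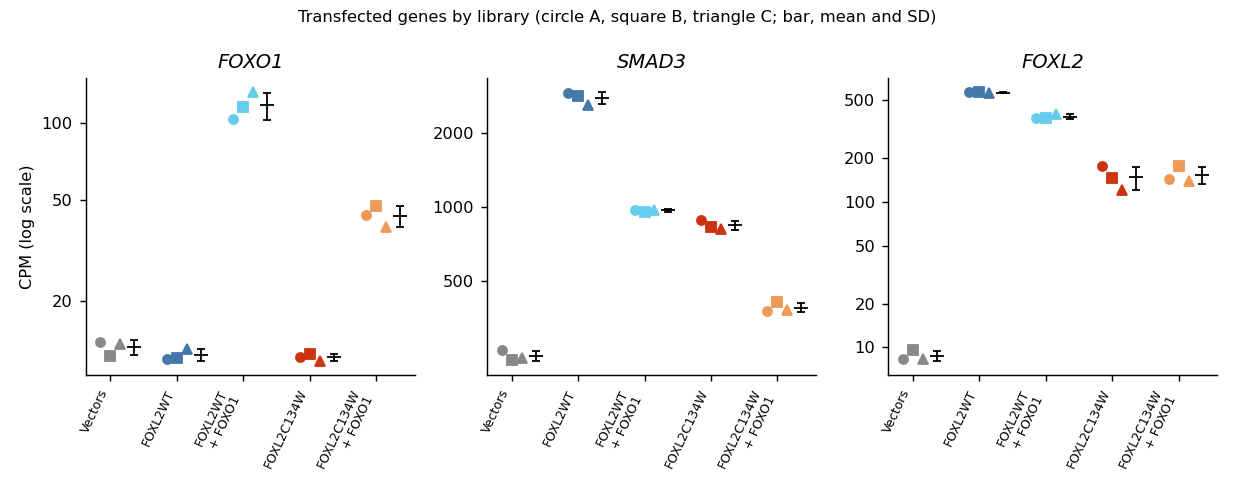
CPM (log scale) of FOXO1, SMAD3 and FOXL2 in each library by condition, with the mean and SD of 3 replicates as black bars. FOXO1 rose from 12 to 43.2 CPM and SMAD3 fell from 843 to 392 CPM when FOXO1-3A was added to FOXL2C134W, and FOXL2 overlapped between these groups.

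Besides the transfected genes, the addition of FOXO1 to FOXL2C134W was seen as a decrease of 97 genes. Of these, 29 belonged to a gene list, among them chromatin regulators, basement membrane and cytoskeletal genes and mitochondrially encoded transcripts, and 68 belonged to none. Of 13868 genes tested, 99 were called at an adjusted p under 0.05, or 0.714%. FOXO1 itself was the single called gene that rose. The other 98 fell (0.707% of the genes tested), 97 of them not transfected. The balance moved with the scaling and the filter. There were 13 higher and 77 lower calls with offsets for gene length and GC content, 16 and 42 in DESeq2 with transcript length offsets, and 65 and 398 with at least 1 count in any library. These 97 genes fell by 0.18 to 0.94 on the log2 scale with a median of -0.39, a decrease of 23.6%, and 9 of them fell by more than 1.5-fold. In all 99 called genes the highest library of the lower group was below the lowest library of the higher group, which held for 14.0% of the genes tested. At an unadjusted p under 0.05 there were 527 genes higher and 1030 lower, and the median over all genes tested was 0.004. The call is not firm for most genes. Without FOXL2C134W replicate B, FOXL2C134W replicate C or FOXL2C134W + FOXO1 replicate C, 5 genes were called in each case, among them FOXO1, SMAD3, NFIC and HCFC1. Without FOXL2C134W + FOXO1 replicate A there were 11 calls, whereas 355 genes were called without FOXL2C134W replicate A and 231 without FOXL2C134W + FOXO1 replicate B. The 97 genes were below 0 in every one of these 6 fits. Their replicates did not overlap, so this sign was fixed by the choice of genes and does not bear on the direction. With all libraries, 48.5% of all genes tested were below 0.

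**Figure D2:**
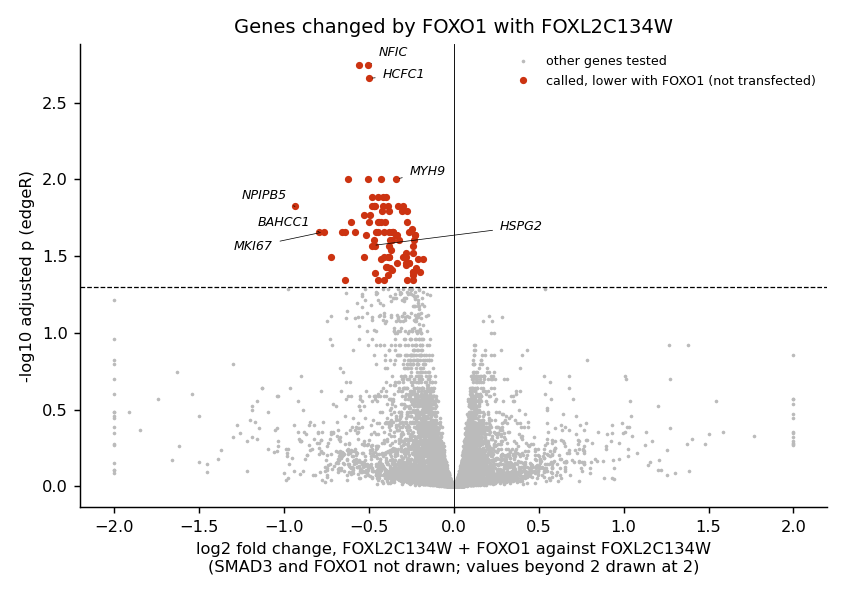
Log2 fold change of FOXL2C134W + FOXO1 against FOXL2C134W (x axis) and -log10 of the edgeR adjusted p (y axis) for each gene tested, with the threshold as a dashed line. Red points are the 97 called genes that were not transfected, and all of them lie left of 0.

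The gene lists were chosen with earlier results of these data known. The chromatin, basement membrane and cytoskeletal lists hold genes that the study names, which favors high shares of calls. Among the gene lists, chromatin regulators gave the most calls. Of 60 chromatin remodelers and modifiers tested, 10 fell and 0 rose (16.7%, against 0.714% of all genes), and 33 were lower and 0 higher at an unadjusted p under 0.05. The median log2 fold change over the 60 genes was -0.19. HCFC1, a subunit shared by several histone methyltransferase complexes, went from 77.6, 91.5 and 86.2 CPM to 56.5, 64.8 and 59.0 CPM (log2 fold change -0.50, standard error 0.07, edgeR adjusted p = 0.0022). All libraries with FOXO1 lay below all those without it. SMARCA4, the BRG1 ATPase of SWI/SNF complexes (chromosome 19, 10960932 to 11079426 on GRCh38), was at 106, 115 and 119 CPM without and 82.6, 95.0 and 93.1 CPM with FOXO1. The SMARCA4 groups were separate but closer (log2 fold change -0.33, standard error 0.06, edgeR adjusted p = 0.015). GATAD2A of the NuRD complex fell from 80.7 ± 1.00 to 66.7 ± 3.35 CPM (log2 fold change -0.27, edgeR adjusted p = 0.016). The histone H3K4 methyltransferase KMT2D was at 36.1, 56.2 and 46.7 CPM without and 28.1, 33.2 and 26.6 CPM with FOXO1, a larger but more variable fall (log2 fold change -0.66, edgeR adjusted p = 0.022). The H3K27 demethylase KDM6B fell from 6.69 ± 0.600 to 4.46 ± 0.287 CPM (log2 fold change -0.58, edgeR adjusted p = 0.022), and its value was 0.19 in DESeq2 with transcript length offsets. CREBBP, EP400, SETD1A and ARID1A were further called members, at log2 fold changes of -0.53, -0.45, -0.41 and -0.33. BAZ2A, a subunit of the nucleolar remodeling complex, was at 113 ± 8.11 CPM without and 98.9 ± 6.64 CPM with FOXO1. Its groups overlapped and it was not called (log2 fold change -0.19, standard error 0.06, edgeR adjusted p = 0.13). BAZ2A was called in 1 of 6 fits without 1 library and in 2 of 11 alternatives of filter, test or offset. The study called BAZ2A in this comparison and also measured it by qPCR in an independent transfection. The SWI/SNF and NuRD subunits SMARCB1, SMARCC1, SMARCE1, HDAC1 and HDAC2 had log2 fold changes of -0.02, 0.05, 0.06, 0.01 and 0.06, none of them called. SMARCC2, CHD4 and CHD3 of the same complexes were at -0.18, -0.14 and -0.38 and were not called either (edgeR adjusted p = 0.24, 0.25 and 0.058). Leaving out 1 library moved the number of called members from 10 to between 2 (without FOXL2C134W + FOXO1 replicate A or C or FOXL2C134W replicate B or C) and 26 (without FOXL2C134W replicate A).

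The basement membrane genes formed another group. Of 22 tested, 4 fell and 0 rose (18.2%), 18 had a log2 fold change below 0, and the median was -0.09. HSPG2, the heparan sulfate proteoglycan perlecan (chromosome 1, 21822244 to 21937310), was at 276, 360.2 and 321 CPM in FOXL2C134W and at 213, 268 and 205 CPM in FOXL2C134W + FOXO1. Its highest library with FOXO1 was just below the lowest without it, and it fell by 0.48 on the log2 scale (standard error 0.10, edgeR adjusted p = 0.027). LAMA5, a laminin alpha chain, went from 158, 181 and 178 CPM to 114, 146 and 115 CPM (log2 fold change -0.46, standard error 0.08, edgeR adjusted p = 0.015). COL4A2, a chain of the network-forming collagen IV, was at 2041, 2136 and 2174 CPM without and 1678, 1871 and 1801 CPM with FOXO1. These groups were separate with a small difference (log2 fold change -0.25, standard error 0.05, edgeR adjusted p = 0.021). COL18A1, the collagen from which endostatin is released, fell from 166 ± 3.53 to 129 ± 14.8 CPM (log2 fold change -0.36, standard error 0.08, edgeR adjusted p = 0.039). The partner chain COL4A1 was at -0.15 (edgeR adjusted p = 0.077), the proteoglycan AGRN at -0.23 (0.067) and the linker NID1 at -0.18 (0.089), just outside the threshold. The laminin chains LAMB1 and LAMC1 were at -0.08 and 0.00. Of 25 interstitial matrix genes, 1 fell (4.00%). This was COL5A1, which nucleates collagen fibrils, at 429, 472 and 462 CPM without and 338, 392 and 357 CPM with FOXO1 (log2 fold change -0.33, standard error 0.07, edgeR adjusted p = 0.025). No basement membrane or interstitial gene was called without FOXL2C134W + FOXO1 replicate A or C or FOXL2C134W replicate B or C.

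Some cytoskeletal genes were also lower. Of 24 filamins, myosins and adhesion linkers tested, 4 fell and 0 rose (16.7%), and 18 were lower and 1 higher at an unadjusted p under 0.05. The median of -0.22 was the lowest among the nuclear-encoded lists. MYH9, the heavy chain of non-muscle myosin IIA (chromosome 22, 36281280 to 36388010), was at 1686, 1945 and 1888 CPM in FOXL2C134W and at 1357, 1544 and 1453 CPM in FOXL2C134W + FOXO1. The groups did not overlap (log2 fold change -0.34, standard error 0.05, edgeR adjusted p = 0.010). The cytolinker PLEC fell from 591 ± 52.5 to 433 ± 51.0 CPM (log2 fold change -0.45, standard error 0.08, edgeR adjusted p = 0.013). TNS1, a focal adhesion tensin, fell from 247 ± 15 to 205 ± 11.5 CPM, and the actin crosslinker FLNA from 2449 ± 89.6 to 2092 ± 158 CPM (log2 fold changes -0.27 and -0.23, edgeR adjusted p = 0.022 and 0.023). The linkers of actin to integrins VCL and TLN1 were at 0.01 and -0.17, and ZYX, a focal adhesion protein, at -0.22, none of them called (edgeR adjusted p = 0.95, 0.16 and 0.084). The smooth muscle type genes TAGLN and TPM1 of the same list were at 0.05 and 0.09, neither called. DLG5, a scaffold of cell polarity, was at 65.1, 76.3 and 78.2 CPM without and 57.1, 67.6 and 60.0 CPM with FOXO1. Its groups overlapped and it was not called (log2 fold change -0.25, standard error 0.07, edgeR adjusted p = 0.12). DLG5, which the study named for this comparison, was called in 2 of 6 fits without 1 library and in 2 of 11 alternatives of filter, test or offset. The 4 calls of the list became 0 without FOXL2C134W + FOXO1 replicate A or C or FOXL2C134W replicate B or C, and 14 without FOXL2C134W replicate A.

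Mitochondrially encoded transcripts had the highest share of calls. Of 12 tested, 7 fell and 0 rose (58.3%), and 11 were lower at an unadjusted p under 0.05, with a median log2 fold change of -0.40. MT-ND4, a subunit of respiratory complex I, was at 372, 453 and 461 CPM in FOXL2C134W and at 321, 297 and 286 CPM in FOXL2C134W + FOXO1. It fell by 0.51 on the log2 scale (standard error 0.08, edgeR adjusted p = 0.010). MT-ND5, of the same complex, fell from 131 ± 24.4 to 85.9 ± 4.22 CPM (log2 fold change -0.61, edgeR adjusted p = 0.019). MT-CYB of complex III was at 137, 150.2 and 163 CPM without and 118, 114 and 109 CPM with FOXO1 (log2 fold change -0.40, edgeR adjusted p = 0.013). MT-ATP6 of the ATP synthase and MT-CO1 of complex IV fell by 0.47 and 0.30 (edgeR adjusted p = 0.015 for each). MT-ND1 and MT-ND2 were the other called members, at -0.41 and -0.29, and MT-ND3 was the member above 0 at 0.10. The share of counts from all mitochondrially encoded genes was 0.314%, 0.343% and 0.369% in FOXL2C134W and 0.294%, 0.272% and 0.264% in FOXL2C134W + FOXO1. The groups did not overlap, and the two-sided exact permutation test gave p = 0.1, the smallest it can give for 3 against 3. The nuclear genes of oxidative phosphorylation had values nearer to 0. Of 50 tested, 0 were called by edgeR or DESeq2, 3 were higher and 0 lower at an unadjusted p under 0.05, and the median was 0.02. ATP5PB and NDUFS1, which had the smallest p among them, were at 0.12 and 0.08 (edgeR adjusted p = 0.38 and 0.39). The cytosolic ribosomal proteins were similar, with 0 of 76 called by edgeR or DESeq2, 1 higher at an unadjusted p under 0.05, and a median of 0.03. RPL7 and RPL6 were at 0.09 and 0.08 (edgeR adjusted p = 0.43 and 0.45), and RPL6 was at -0.02 when DESeq2 was run with transcript length offsets. The 7 mitochondrial calls became 4 without FOXL2C134W + FOXO1 replicate A and 0 without FOXL2C134W + FOXO1 replicate C or FOXL2C134W replicate B or C.

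The largest falls among called genes of at least 5 CPM lay in genes of varied function. MKI67, which encodes the proliferation marker Ki-67 (chromosome 10, 128096659 to 128126423), was at 39.9, 63.9 and 60.6 CPM in FOXL2C134W and at 29.4, 35.1 and 31.9 CPM in FOXL2C134W + FOXO1. FOXL2C134W replicate A lay much nearer to the FOXO1 libraries than replicates B and C (log2 fold change -0.77, standard error 0.15, edgeR adjusted p = 0.022). Of 30 mitotic and G2/M genes, MKI67 was the 1 called by edgeR (3.33%), and the median of the list was 0.05. BAHCC1, a reader of H3K27 methylation, fell from 12.3 ± 2.39 to 7.06 ± 1.01 CPM (log2 fold change -0.79, edgeR adjusted p = 0.022). ZNF469, a zinc finger gene linked to corneal collagen, fell from 11.1 ± 2.15 to 7.09 ± 0.385 CPM (log2 fold change -0.64, edgeR adjusted p = 0.045). NPIPB5 and NPIPA1, members of a family of near-identical copies on chromosome 16 whose reads cannot be assigned with certainty, were at -0.94 and -0.64 (edgeR adjusted p = 0.015 and 0.022). NFIC, a CTF/NF-I transcription factor that was chosen after its values were seen because it was called without any 1 library, was at 81.2, 90.8 and 94.4 CPM without and 60.3, 68.0 and 59.5 CPM with FOXO1 (log2 fold change -0.50, standard error 0.07, edgeR adjusted p = 0.0018). NEAT1, the noncoding RNA on which nuclear paraspeckles are built (chromosome 11 of GRCh38, 65422774 to 65445540), was at 25.3, 29.0 and 34.7 CPM without and 18.1, 21.1 and 18.4 CPM with FOXO1. It fell by 0.62 on the log2 scale (standard error 0.10, edgeR adjusted p = 0.010). Without FOXL2C134W + FOXO1 replicate C or FOXL2C134W replicate B or C, NFIC remained called and the other genes of this paragraph were not.

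Of 30 known FOXO targets tested, edgeR called 0, near its share of 0.714% over all genes. DESeq2 called 1 of them and 219 of 37787 genes, of which 26534 had no adjusted p. At an unadjusted p under 0.05, 1 was higher and 1 lower, and the median log2 fold change was 0.01. IRS2, an insulin receptor substrate that FOXO1 usually activates, was at 36.7, 37.8 and 39.3 CPM in FOXL2C134W and at 30.4, 32.9 and 29.3 CPM in FOXL2C134W + FOXO1. The groups were separate, with the level lower with FOXO1. The difference did not pass the threshold (log2 fold change -0.30, standard error 0.07, edgeR adjusted p = 0.074). IRS2 was called in 2 of 6 fits without 1 library and in 3 of 11 alternatives of filter, test or offset. HBP1, a repressor of cell cycle genes, was at 67.3, 67.4 and 71.2 CPM without and 74.3, 70.8 and 77.0 CPM with FOXO1 (log2 fold change 0.11, standard error 0.05, edgeR adjusted p = 0.43). The stress gene SESN1 was at 0.25 with a standard error of 0.12, and PDK4, a metabolic FOXO target near 1 CPM, at 0.57 with a standard error of 0.34. The cell cycle inhibitors CDKN1A and CDKN1B were at -0.03 and -0.02, GADD45A at -0.03, the proapoptotic BCL2L11 at -0.09 and TXNIP, which binds thioredoxin, at 0.01, with standard errors of 0.06, 0.04, 0.06, 0.12 and 0.05. Of 35 genes of the insulin and PI3K-AKT pathway, 1 fell and 0 rose (2.86%), with a median of 0.01. This was RPTOR, the scaffold of mTOR complex 1, at 44.6, 43.4 and 46.7 CPM without and 35.2, 39.4 and 37.4 CPM with FOXO1 (log2 fold change -0.26, standard error 0.06, edgeR adjusted p = 0.035). RPTOR was not called without FOXL2C134W + FOXO1 replicate A or C or FOXL2C134W replicate B or C.

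Promoters were searched for the core forkhead motif GTAAACA and its reverse complement TGTTTAC in the 250 bases before the start of transcription, taken from RefSeq on GRCh38.p14. A promoter was given for 66 of the 97 called genes, and 2 of these (3.03%) held the motif, against 204 of 10794 tested genes (1.89%) and 2.98% of all 35116 promoters. Of 23 FOXO targets with a promoter, 3 (13.0%) held it. The promoters are shown to set the called genes with the motif, BAHCC1 and TNRC18 (log2 fold changes -0.79 and -0.49), beside the FOXO targets with it, TXNIP, HBP1 and BCL2L11 (0.01, 0.11 and -0.09). They are written 5′ to 3′ on the strand of the gene with the motif in capitals.
BAHCC1, chr17:81395207-81395456 (plus strand): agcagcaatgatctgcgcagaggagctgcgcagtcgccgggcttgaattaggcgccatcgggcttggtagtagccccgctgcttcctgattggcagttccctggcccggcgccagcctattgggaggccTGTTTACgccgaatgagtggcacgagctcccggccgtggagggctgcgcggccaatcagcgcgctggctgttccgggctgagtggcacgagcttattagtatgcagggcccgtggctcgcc
TNRC18, chr7:5423835-5424084 (minus strand): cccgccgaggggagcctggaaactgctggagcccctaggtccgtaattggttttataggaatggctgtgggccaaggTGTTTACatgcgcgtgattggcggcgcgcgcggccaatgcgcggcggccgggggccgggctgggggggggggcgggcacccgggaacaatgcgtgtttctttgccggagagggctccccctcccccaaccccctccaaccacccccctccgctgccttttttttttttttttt
TXNIP, chr1:145996580-145996829 (minus strand): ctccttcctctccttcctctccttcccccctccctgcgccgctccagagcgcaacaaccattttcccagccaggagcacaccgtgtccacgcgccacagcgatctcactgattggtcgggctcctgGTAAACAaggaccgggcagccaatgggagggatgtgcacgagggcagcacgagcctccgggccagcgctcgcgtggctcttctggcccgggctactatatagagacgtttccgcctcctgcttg
HBP1, chr7:107168753-107169002 (plus strand): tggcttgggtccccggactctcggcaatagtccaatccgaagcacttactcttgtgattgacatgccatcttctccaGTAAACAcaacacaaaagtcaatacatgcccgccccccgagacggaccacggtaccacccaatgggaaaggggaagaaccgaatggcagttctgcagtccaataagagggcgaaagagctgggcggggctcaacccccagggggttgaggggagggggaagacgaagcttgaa
BCL2L11, chr2:111120664-111120913 (plus strand): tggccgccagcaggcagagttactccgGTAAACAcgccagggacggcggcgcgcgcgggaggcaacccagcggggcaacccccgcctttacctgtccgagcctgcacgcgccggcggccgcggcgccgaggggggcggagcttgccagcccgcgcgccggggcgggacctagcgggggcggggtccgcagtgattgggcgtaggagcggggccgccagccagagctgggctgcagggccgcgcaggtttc
BAHCC1 and TNRC18, both of which encode large proteins with a BAH domain, carried the motif in the orientation TGTTTAC, beginning 121 and 173 bases before the start. TXNIP, HBP1 and BCL2L11 carried GTAAACA, beginning 124, 173 and 223 bases before it. A match of letters is not a measure of binding, which was not part of these data.

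Other pathways showed few or no calls in edgeR. The counts by DESeq2 below stand beside 219 calls among 37787 genes, of which 26534 had no adjusted p. Of 43 tested genes of the TGF-beta and SMAD3 response, 0 were called by edgeR and 3 by DESeq2. At an unadjusted p under 0.05, 2 were higher and 7 lower, and the median was 0.02. SMAD3 itself had fallen to 392 CPM on average with FOXO1, which was above its 249 CPM in Vectors. The SMAD corepressor SKI was at 57.7, 57.1 and 53.4 CPM without and 47.9, 50.5 and 44.9 CPM with FOXO1. It was just outside the threshold (log2 fold change -0.23, edgeR adjusted p = 0.058), and the latent TGF-beta binding protein LTBP4 was at -0.29 (0.059). SKI and LTBP4 were each called in 1 of 6 fits without 1 library and in 3 of 11 alternatives of filter, test or offset. Of 27 autophagy and lysosome genes, 1 fell (3.70%). This was ULK1, the kinase that starts autophagy, at 19.1 ± 1.03 CPM without and 14.8 ± 0.948 CPM with FOXO1 (log2 fold change -0.37, standard error 0.07, edgeR adjusted p = 0.025), and it was not called without FOXL2C134W + FOXO1 replicate A or C or FOXL2C134W replicate B or C. Of 26 genes of DNA replication and S phase, 0 were called by edgeR and 1 by DESeq2, with 3 higher and 2 lower at an unadjusted p under 0.05. The chromatin assembly factor CHAF1A was at -0.25 (edgeR adjusted p = 0.056) and thymidylate synthase TYMS at 0.11 (0.19). CHAF1A was called in 2 of 6 fits without 1 library and in 5 of 11 alternatives of filter, test or offset. In the fit of all libraries no member was called by edgeR, nor by DESeq2 without offsets, among 42 ATF4 and amino acid stress genes, 29 apoptosis genes, 36 interferon genes, 28 NF-kappaB genes, 21 cholesterol genes and 18 granulosa and steroidogenic genes. At an unadjusted p under 0.05 these lists had 1, 1, 5, 1, 5 and 0 genes higher and 3, 2, 1, 7, 1 and 1 lower, with medians of -0.01, 0.01, 0.04, -0.07, 0.05 and -0.05. Members with the smallest p in these lists had log2 fold changes of -0.23 for ATF3 and -0.11 for SLC7A1, -0.20 for XIAP and -0.77 for BCL2, 0.19 for RSAD2 and 0.14 for IFIT1, -0.15 for RELA and 0.11 for NFKBIA, 0.12 for IDI1, and -0.24 for PGR and -0.08 for GATA4. The edgeR adjusted p of these 11 genes ran from 0.14 to 0.55. Of them, 3 were called in some alternatives. XIAP was called without FOXL2C134W replicate A (edgeR adjusted p = 0.012) and in 2 of the 11 alternatives of filter, test or offset, RSAD2 with at least 1 count in any library (0.011) and IFIT1 without FOXL2C134W + FOXO1 replicate B (0.047).

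The levels of the called genes in the remaining conditions show where FOXL2C134W + FOXO1 came to lie. These comparisons share libraries with the one that chose the genes and are given as values only. Over the 97 genes the median log2 difference from Vectors was 0.36 in FOXL2C134W and -0.04 in FOXL2C134W + FOXO1. Of the 97 genes, 94 were above Vectors in FOXL2C134W and 39 in FOXL2C134W + FOXO1. The choice of genes that were higher in FOXL2C134W favors this order. For MYH9 the mean level was 1305 CPM in Vectors, 1840 CPM in FOXL2C134W and 1451 CPM in FOXL2C134W + FOXO1. For HSPG2 it was 247, 319 and 229 CPM. MT-ND4 was at 274, 429 and 301 CPM in the same order. NEAT1 had another order, with 49.1 CPM in Vectors, 29.6 CPM in FOXL2C134W and 19.2 CPM in FOXL2C134W + FOXO1, the lowest of the 5 conditions. IRS2 was at 26.0, 37.9 and 30.9 CPM.

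**Figure D3:**
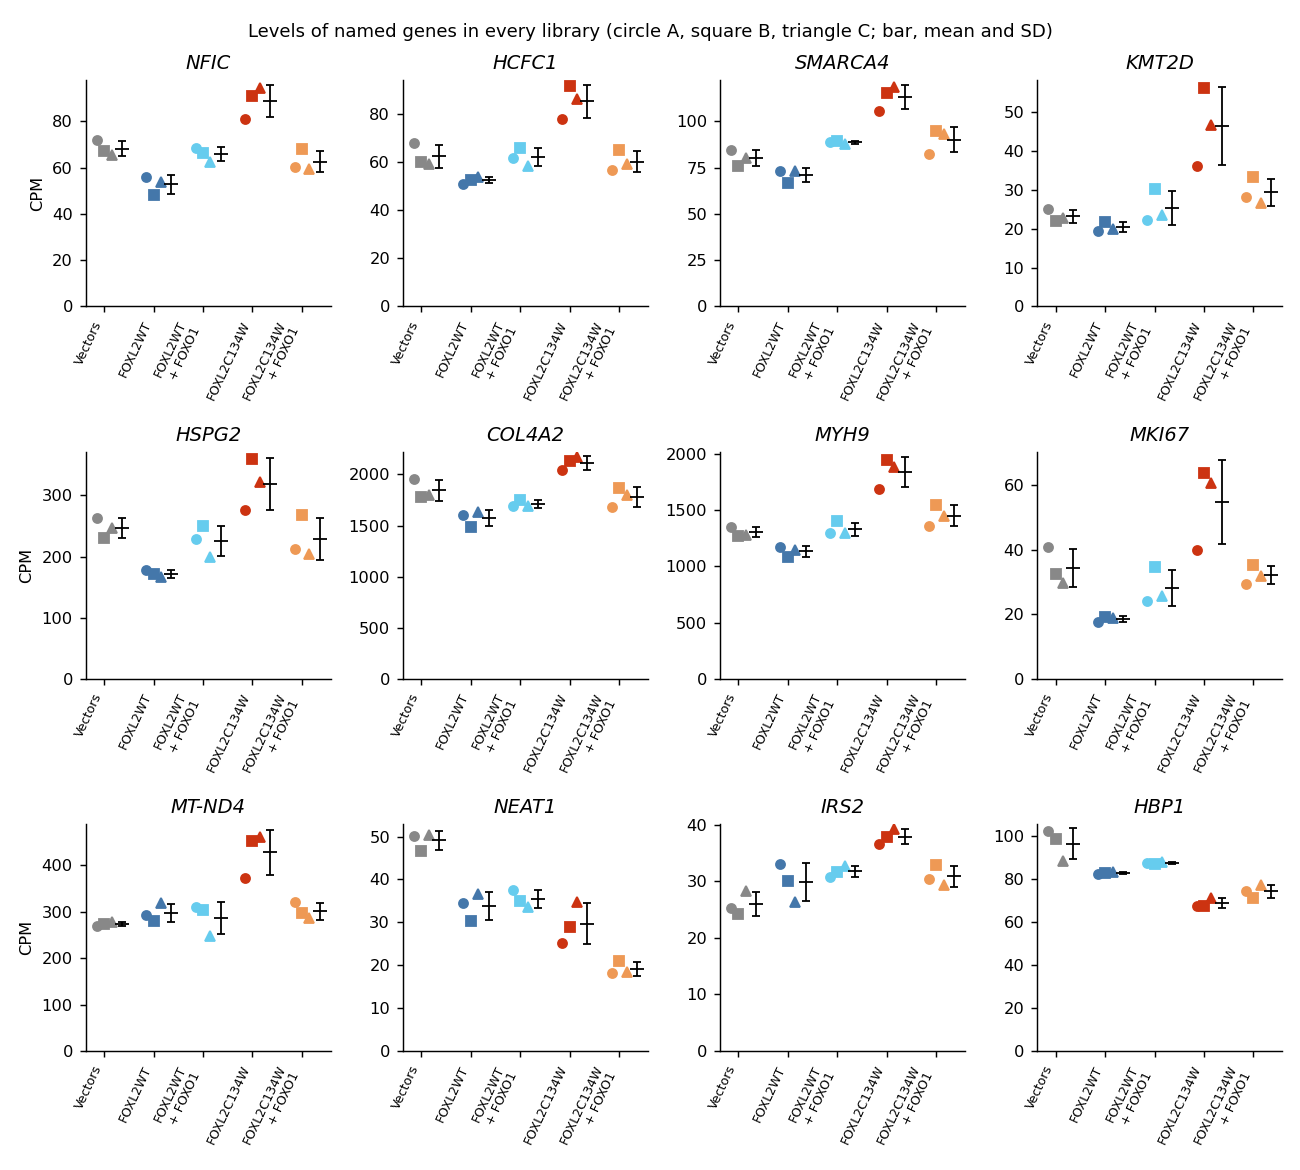
CPM of 12 named genes in each library of the 5 conditions, from 0, with mean and SD of 3 replicates as black bars. Most genes are highest in FOXL2C134W and lie near Vectors in FOXL2C134W + FOXO1, NEAT1 is lowest in FOXL2C134W + FOXO1, and IRS2 and HBP1 were not called.

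Whether the effect of FOXO1 differed between the FOXL2 backgrounds was examined with FOXL2WT + FOXO1 against FOXL2WT, which shares no library with the comparison above. There, 7 genes were called (0.0505%), 2 higher and 5 lower, namely FOXO1, SMAD3, FOXL2, ATF3, KLF10, CMPK2 and ARHGAP11B, and none of the 97 genes was among them by edgeR. The 7 calls became 4 and 2 without FOXL2WT + FOXO1 replicates A and B and 3 without FOXL2WT replicate B. DESeq2 called 6 of the 97 and 67 of 37787 genes, of which 31641 had no adjusted p. In edgeR alternatives, 25 of the 97 were among 260 calls with at least 1 count in any library. With gene length and GC content offsets 5 were among 46 calls, and with a replicate block 0 were. In edgeR 1266 of all genes had an unadjusted p under 0.05. Of the 97 genes that fell with FOXO1 in FOXL2C134W, 87 (89.7%) were above 0 in FOXL2WT, as were 50.1% of all genes tested. Long, GC-rich transcripts were frequent among the 97 genes, and that class had a median above 0 in FOXL2WT + FOXO1 against FOXL2WT. For the 290 genes in both the longest and the most GC-rich quintile the median there was 0.10, against -0.02 to 0.04 in the remaining quintile pairs. The log2 fold changes of the 97 genes in FOXL2WT ran from -0.20 to 0.62 with a median of 0.17. Relative to Vectors, the mean log2-CPM of the called genes was -0.172 in FOXL2WT and -0.012 in FOXL2WT + FOXO1. It was 0.360 in FOXL2C134W and -0.042 in FOXL2C134W + FOXO1. The backgrounds thus started on opposite sides of Vectors, and both lay near Vectors with FOXO1. MKI67 was at 18.5 ± 0.919 CPM in FOXL2WT and 28.2 ± 5.62 CPM in FOXL2WT + FOXO1, and HSPG2 was at 172 ± 6.21 and 226 ± 24.9 CPM. The difference between the effects of FOXO1 was tested as an interaction, which was called for 192 genes (1.38%), 173 below 0 and 19 above. It was called for 74 of the 97 genes, which were chosen on 1 side of this difference. In DESeq2 with transcript length offsets the interaction was called for 30 of the 97. SMARCA4 had an interaction of -0.65 (edgeR adjusted p = 0.0012), MYH9 of -0.57 (0.0016) and HSPG2 of -0.88 (0.0065). For the mitochondrial transcripts it was not called at MT-ND4 (-0.46, edgeR adjusted p = 0.056), MT-CYB (-0.34, 0.081), MT-ATP6 (-0.37, 0.15) or MT-CO1 (-0.21, 0.23), and of the 12 tested it was called for 2. KDM6B was also lower in FOXL2WT + FOXO1 (log2 fold change -0.15), and its interaction of -0.44 was not called (edgeR adjusted p = 0.26). The transfected genes also differed between the backgrounds. FOXL2 was at 560.4 ± 5.89 CPM in FOXL2WT and 147 ± 27.0 CPM in FOXL2C134W, and SMAD3 at 2767 ± 154 and 843 ± 37.4 CPM. FOXO1 reached 117 CPM in FOXL2WT + FOXO1 and 43.2 CPM in FOXL2C134W + FOXO1. In the interaction, the form of FOXL2 cannot be told apart from these RNA levels. By immunoblot of parallel cultures, the study reported FOXL2WT, FOXL2C134W and FOXO1 protein as balanced. It gave no such result for SMAD3 protein. Leaving out 1 library gave between 45 interaction calls (without FOXL2C134W + FOXO1 replicate A) and 423 (without FOXL2C134W replicate A), with 47 without FOXL2WT + FOXO1 replicate B and 56 without FOXL2WT replicate B. The count was 78 and 83 without FOXL2C134W replicates B and C, and 303 and 121 without FOXL2C134W + FOXO1 replicates B and C.

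**Figure D4:**
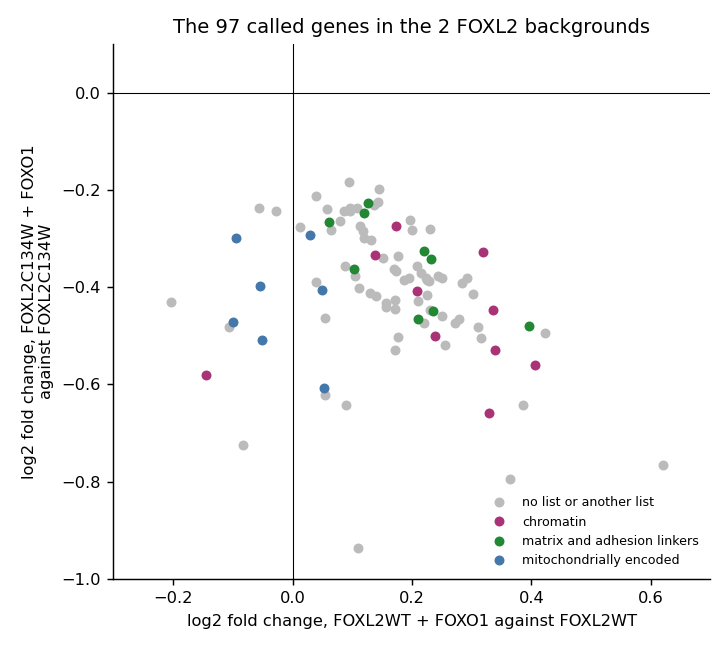
Log2 fold change on adding FOXO1 in FOXL2WT (x axis) and in FOXL2C134W (y axis) for the 97 called genes, colored by gene list. The y values were below 0 by choice of the genes, 87 of the points lie right of 0, and the mitochondrially encoded genes lie near 0 on the x axis.

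The called genes shared features that the comparison did not use. Their median transcript length was 4283 bases against 2110 bases for all genes tested, and their median GC content 59.5% against 49.1%. Among the 290 genes in both the longest and the most GC-rich quintile, 35 were called (12.1%) and the median log2 fold change was -0.20. Among the 351 genes in the shortest and least GC-rich quintiles, 0 were called and the median was 0.04. The shift followed length and GC content across the whole transcriptome, since the median fell from 0.03 in the lowest to -0.05 in the highest quintile of GC content and from 0.02 in the lowest to -0.04 in the highest quintile of length. The basement membrane, adhesion and chromatin lists had median lengths of 5349, 4932 and 4681 bases. Their median GC content was 51.1%, 55.8% and 49.8%, so that the chromatin list was long but near all genes in GC content. Its called members were richer in GC, each at 53.2% or more, and the called basement membrane genes were at 61.2% to 67.2%. The mitochondrially encoded genes did not share the feature, at a median of 870 bases and 44.6% GC. The mean log2-CPM of the 290 genes relative to Vectors was 0.155, 0.171 and 0.182 in FOXL2C134W and -0.086, 0.0746 and -0.0608 in FOXL2C134W + FOXO1, groups that did not overlap (two-sided exact permutation p = 0.1, the smallest possible). The share of counts in genes over 5000 bases was 8.93%, 10.1% and 9.89% in FOXL2C134W and 8.77%, 9.01% and 9.25% in FOXL2C134W + FOXO1. Here FOXL2C134W replicate A lay within the range of the FOXO1 libraries (two-sided exact permutation p = 0.3). When a trend on both length and GC content was removed, 90 genes were called, of which 61 were among the 99, and with GC content alone 44, of which 39 were. HSPG2, LAMA5, MYH9, PLEC, SMARCA4 and HCFC1 stayed called with both offsets, and COL4A2, COL5A1, COL18A1, FLNA and TNS1 did not. Of the 7 mitochondrial genes, 7 stayed called. The part of RNA quality or library preparation in these shifts was not tested.

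**Figure D5:**
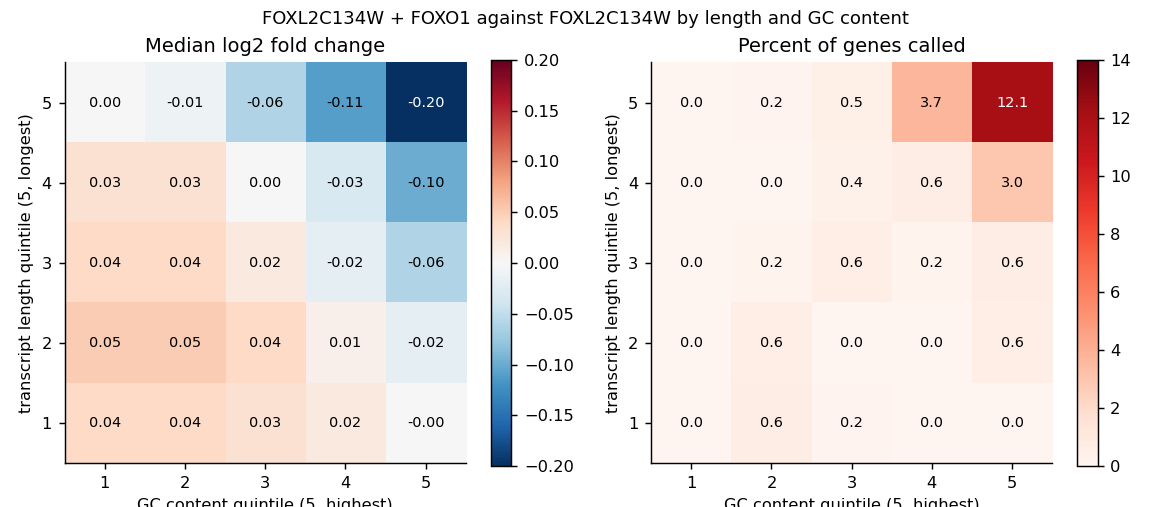
Median log2 fold change of FOXL2C134W + FOXO1 against FOXL2C134W (left) and percent of genes called (right) by quintile of transcript length (y axis) and of GC content (x axis). The lowest median (-0.20) and the highest share of calls (12.1%) were in the longest and most GC-rich quintile.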

How the data were processed

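RNA-seq of HGrC1 cells gave 15 libraries in 5 conditions of 3 replicates, assigned from the labels. The authors quantified reads on hg38 transcripts with Salmon 1.1.0, per the labels, and deposited estimated counts, summed to 37787 genes, rounded and not normalized. The deposited TPM values per transcript, scaled by Salmon to a fixed total per library, served to weight transcript lengths. GC content and coordinates came from GENCODE 44, which held 98.4% of the transcripts.

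All 15 libraries were fitted together in edgeR 4.0.16 (R 4.3.3) with filterByExpr, TMM and the quasi-likelihood test. The threshold was an adjusted p (Benjamini-Hochberg) of 0.05 over 13868 genes. Totals of 14962245 to 25339094 counts set the depth, and the spread between replicates exceeded counting noise. Library values were compared by exact permutation tests in scipy 1.17.1. The scripts were tested on simulated data.

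The comparison, the 23 gene lists and the named genes were chosen with earlier results of these data known. Named were the transfected genes, 7 genes the study names and the 10 smallest fold changes among called genes of at least 5 CPM with separate replicates. The rule also held the 10 largest above 0, but no called gene besides FOXO1 rose. Also named were, of each list, up to 4 called members or, with none, the 2 with the smallest p. Alternatives were DESeq2 1.42.0 with and without transcript length offsets, its size factors, filters of at least 1 count in any and at least 10 counts in every library, a fit of the compared groups alone, offsets for length and GC content, a replicate block, and leaving out each library. Of the named genes, 2 are not reported here.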

Additional observations from a re-analysis of the deposited data

Results flagged for a closer look

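The effect of FOXO1 differed between the FOXL2C134W and FOXL2WT backgrounds by the edgeR interaction test for 192 genes. The transfected genes were among them, with interactions of 0.60 for FOXL2, 0.41 for SMAD3 and -1.41 for FOXO1. The form of FOXL2 therefore cannot be told apart from the RNA levels of these genes. In DESeq2 with transcript length offsets the SMAD3 interaction was 0.05 and was not called. Among chromatin genes the interaction was -0.99 for KMT2D, -0.74 for HCFC1, -0.65 for SMARCA4 and -0.45 for GATAD2A. Among matrix and cytoskeletal genes it was -0.88 for HSPG2, -0.68 for LAMA5, -0.37 for COL4A2, -0.55 for COL5A1, -0.57 for MYH9, -0.68 for PLEC, -0.33 for TNS1 and -0.35 for FLNA. The remaining genes below 0 were MKI67 at -1.39, BAHCC1 at -1.16, NPIPB5 at -1.05, ZNF469 at -1.03, NFIC at -0.82, NEAT1 at -0.68, ULK1 at -0.54, CHAF1A at -0.43 and RPTOR at -0.34. Above 0 were the interferon gene RSAD2 at 0.52 and the NF-kappaB inhibitor NFKBIA at 0.30. Single outlying libraries were not tested in these groups of 3.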

How the results depend on the processing

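The count of 99 genes called in FOXL2C134W + FOXO1 against FOXL2C134W depended on most choices. It was 170 with at least 10 counts in every library, 463 with at least 1 count in any, 219 in DESeq2, 58 in DESeq2 with transcript length offsets, 44 with a GC content offset and 32 with only the groups compared. Leaving out 1 library gave 5 to 355. Of the 97 genes, 27 stayed called in DESeq2 with transcript length offsets and 28 with only the groups compared. All 97 were below 0 in every alternative except DESeq2 with transcript length offsets, where 95 were. They were chosen as genes below 0 in the main fit, which favors this. For FOXL2WT + FOXO1 against FOXL2WT the main count was 7. The same alternatives gave 13, 260, 67, 62, 20 and 14 calls. A gene length offset gave 23, length and GC content offsets 46, and the gene length offset with the replicate block 25. Without 1 library there were 2 to 7. The 192 interaction calls became 551 with at least 1 count in any library, 361 in DESeq2 and 113 in DESeq2 with transcript length offsets, and 45 to 423 without 1 library. Signs turned for values that were not called, FOXL2 (-0.07 without FOXL2C134W replicate C or FOXL2C134W + FOXO1 replicate B), RPL6 (-0.02) and PGR (0.14), and for KDM6B (0.19), the last 3 in DESeq2 with transcript length offsets. The cause of these changes was not tested. Whether the replicate letters pair the cultures cannot be decided from 3 replicates a group. Same-letter deviations of FOXL2C134W and FOXL2C134W + FOXO1 correlated at 0.174, -0.229 and 0.409 for A, B and C. The value for C was the highest of the letter pairs there. In FOXL2WT and FOXL2WT + FOXO1 the same-letter values were 0.032, -0.079 and -0.057. With a replicate block 88 genes were called, 81 of them among the 99, and 7 in FOXL2WT and 163 in the interaction.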
